A study of Vitis vinifera with 24 samples.

Results

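Non-embryogenic callus (NEC) of the grapevine cultivar Cabernet Sauvignon (CS) was compared with undifferentiated callus of the same cultivar at day 40 of culture (40D), across 18379 of the 29971 loci in the deposited table. These are the loci that reached 1 FPKM in 3 or more of the 6 libraries. FPKM counts sequenced fragments relative to the length of the transcript and the size of the library. The study followed anthers of Vitis vinifera into embryogenic and non-embryogenic callus in CS, labelled poorly competent for embryogenesis, and in Sangiovese (SG), labelled highly competent. It holds 24 RNA libraries, 3 for each of 8 groups, and the comparison used 3 CS NEC and 3 CS 40D libraries. SG NEC and SG 40D, with 3 libraries each, served for the test of a cultivar difference.

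All calli had been grown from anthers in the dark at 26 °C, on an induction medium with the synthetic auxin 2,4-D at 4.5 µM and the cytokinin BAP at 8.9 µM. At 3 months, calli were moved for 1 month to a second medium with 10 µM of the auxin NOA, 1 µM BAP, 20 µM of the auxin IAA and 2.5% activated charcoal. NEC was sorted from embryogenic callus (EC) under a stereomicroscope at month 4. The NEC against 40D difference thus holds culture age, the change of medium and the selection of callus without embryos, and these cannot be told apart. The labels call the libraries biological replicates, and nothing says how many calli or plants each came from. In bulk callus, fewer cells of a type and less RNA per cell cannot be told apart.

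Callus is unorganised tissue that grows from wounded or cultured plant parts under auxin and cytokinin, and only some of it goes on to form somatic embryos. Grapevine tissue has large families of pathogenesis-related (PR) proteins, among them PR1, chitinases that cut fungal cell walls, thaumatin and osmotin-like proteins and the small PR10 proteins. Its phenylpropanoid pathway feeds both flavonoids, the pigments and tannins, and stilbenes such as resveratrol, which are made by stilbene synthases. The locus identifiers in the file carry no names, and 0 identifiers were found in the gene table of the reference assembly. The 18 lists of genes described below are locus numbers taken from published grapevine assignments, so the name of each list rests on those and not on the files, and lists given as a region on a chromosome may take in other genes. Together they hold 339 loci, of which 206 are among the 18379 and 133 did not reach the level needed.

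Column sums of FPKM ran from 927774 to 938765 in CS 40D and from 878015 to 886037 in CS NEC. The number of reads is unknown, and the relative depth, estimated from the most frequent ratio of values under 0.15 FPKM, ran from 1 to 1.48 over the 6 libraries. The CS 40D libraries lay closer together than those of CS NEC, with a median coefficient of variation of 2.57% against 7.14% among loci of 100 to 1000 FPKM. Whether the 40D libraries came from 1 pool was not tested. CS NEC replicate 3 stood apart at a set of loci: 80 were at 5 FPKM or more and at least 4 times as high there as in both other NEC libraries, against 4 such loci in replicate 1 and 4 in replicate 2. Of those 80 loci, 37 belong to the lists below, 23 of them to the stilbene synthases of chromosome 16. Lists that this library decides are given with and without it. No marker list of another cell type was applied.

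Expression differed at most loci. With limma on log2(FPKM + 1) and an adjusted p under 0.05, 6478 loci were higher and 6289 lower in CS NEC than in CS 40D, or 35.2% and 34.2% of the 18379 loci. The spread of each locus was estimated over all 8 groups, and 63.2% of all 21568 loci in the fit were called. A difference of at least 1 on that log2 scale was reached by 2158 higher loci (11.7%) and 2230 lower loci (12.1%), and one of at least 3 by 242 higher and 296 lower loci. The median difference over all 18379 loci was 0.02. Rescaling to equal column sums gave 7185 higher and 5564 lower loci, and median-of-ratios scaling gave 6842 and 6131. The groups did not overlap at 77.2% of the loci, and 69.5% were called in either direction. Averaging the 3 libraries of each 40D group into 1 sample left 4803 higher and 4821 lower loci. Of the 18379 loci, 649 reached 1 FPKM in the NEC libraries alone and 940 in the 40D libraries alone. These entered only through the group in which they were high, so they had to differ, and list members among them are pointed out below. At the edge of the rule, 199 loci had a third-highest value under 1.1 FPKM, and 227 left out had one of at least 0.9.

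**Figure D1:**
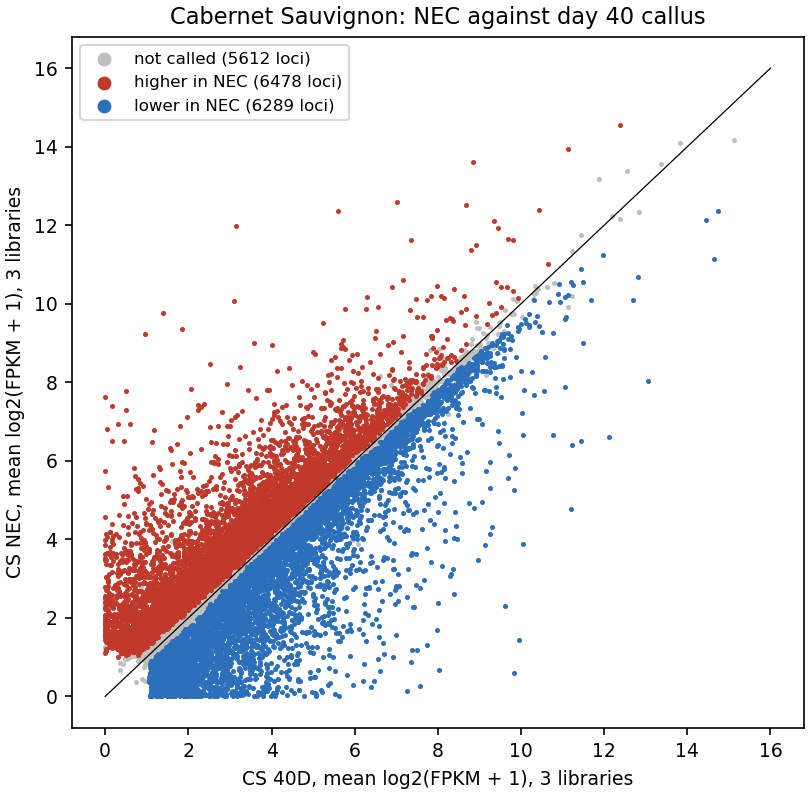
Mean log2(FPKM + 1) of each of the 18379 loci in 3 CS 40D libraries (horizontal axis) and 3 CS NEC libraries (vertical axis), with loci called by limma at an adjusted p under 0.05 in colour and equal levels on the line. Called loci lie on both sides of the line in near-equal numbers, 6478 above and 6289 below, with FPKM as deposited. Rescaling to equal column sums gave 7185 higher and 5564 lower.

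The share of loci that were called with a difference of at least 1 varied between classes of level. It was 31.6% among loci with a mean under 5 FPKM, 22.8% from 5 to 20 FPKM and 18.3% between 20 and 100 FPKM. From 100 to 1000 FPKM it was 21%. Among the 77 loci of 1000 FPKM or more it was 44.2%, with 16 higher and 18 lower. The 649 and 940 loci that passed the rule through 1 group alone had to differ, and their part in each class was not separated. The 10 most abundant loci of a library held 17.5% to 17.9% of the column sum in CS 40D and 14.8% to 15.8% in CS NEC.

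The 2 loci that rose most were both under 10 FPKM in 40D callus. VIT_05s0020g05040 was at 7.36, 9.15 and 7.15 FPKM in the 40D libraries and at 3394, 4773 and 4049 in NEC. It rose by 8.83 on the log2(FPKM + 1) scale, with a standard error of 0.54 and an adjusted p of 5.9e-11. VIT_08s0007g07750 went from 1.56, 2.11 and 1.3 FPKM to 719, 1118 and 818, a rise of 8.37 with a standard error of 0.36. Both loci fell far outside the spread of either group.

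The 2 loci that fell most were abundant at day 40 and nearly gone in NEC. VIT_03s0038g02060 was at 869, 926 and 922 FPKM in 40D and at 0.585, 0.497 and 0.473 in NEC, and fell by 9.22 with a standard error of 0.26, having passed the level rule through 40D alone. VIT_11s0016g02110 was at 975, 998 and 1009 FPKM and then at 2.13, 1.54 and 1.53, and fell by 8.51 with a standard error of 0.20. None of these 4 identifiers is paired with a name in the files.

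The summed levels of 3 of the 4 PR regions were higher in every CS NEC library than in any CS 40D library, with the largest ratio for the PR1 region of chromosome 3. PR1 proteins are secreted antimicrobial proteins, widely used as markers of salicylic acid responses. Summed over its 16 loci the region held 79.0, 78.3 and 74.8 FPKM in the 40D libraries and 5573, 5891 and 5683 in NEC, a ratio of 73.9 between the means. Its share of the column sum went from at most 0.0085% to at least 0.635%. Of its loci 5 passed the level rule, 4 rose and 1 fell, beside 35.2% and 34.2% of all loci, and the median difference was 3.42, beside 0.02 over all loci.

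Nearly all of that PR1 sum came from VIT_03s0088g00700, at 49.7, 47.2 and 45.6 FPKM in 40D and at 5018, 5398 and 5287 in NEC. It rose by 6.75, with a standard error of 0.45 and an adjusted p of 2.3e-10. VIT_03s0088g00710 rose by 7.29, with a standard error of 0.22, from at most 0.743 FPKM to 289, 222 and 164, and passed the level rule through NEC alone. VIT_03s0088g00690 rose by 3.42, with a standard error of 0.42. The 1 locus that fell, VIT_03s0088g00810, was at 5.8, 6.87 and 5.63 FPKM in 40D and at 0.993, 0.374 and 1.5 in NEC. The NEC and 40D libraries did not overlap at any of the 5 loci, as at 77.2% of all loci.

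The class IV chitinase region of chromosome 5 summed to 6380 ± 83.6 FPKM in 40D and 26026 ± 2038 in NEC (SD, n = 3), 4.08 times as much. Of its 10 loci past the level rule, of 16 in all, 8 rose and 1 fell, with a median difference of 1.34, beside 35.2% and 34.2% of all loci. One of the rises and the fall are of loci that passed the rule through 1 group alone. One locus carried the region: VIT_05s0094g00340 was at 5321, 5359 and 5236 FPKM in 40D and at 21722, 25307 and 24778 in NEC, and rose by 2.17 with a standard error of 0.76. VIT_05s0094g00330 was at 261, 298 and 246 FPKM and then at 1102, 1263 and 1147. Averaging the 40D libraries into 1 sample left neither called, and left 4 rises in the region. VIT_05s0094g00280, listed at 0 in 40D replicates 1 and 3 and at 0.103 FPKM in replicate 2, reached 49.9, 116 and 238 FPKM in NEC. It rose by 6.77, with a standard error of 0.32, and is the locus that passed through NEC alone.

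Thaumatin and osmotin-like proteins, which permeabilise fungal membranes, are encoded in a region of chromosome 2. The region summed to 10622, 10812 and 10985 FPKM in 40D and to 23052, 23694 and 22330 in NEC, with no overlap. Of its 9 loci past the level rule 4 rose and 0 fell, or 8 rose in a fit of NEC and 40D alone, and the median difference was 1.30, beside 35.2% of all loci higher. One of the 4 rises is of a locus that passed through NEC alone. VIT_02s0025g04330 rose by 3.53, with a standard error of 0.67, from 116, 122 and 117 FPKM to 1478, 1258 and 1408. VIT_02s0025g04250 rose by 2.00 with a standard error of 0.25, and VIT_02s0025g04280 by 1.34 with one of 0.40, the latter not called after averaging 40D or with a pseudocount of 0.1. The most abundant locus, VIT_02s0025g04300, was at 5822, 5944 and 6138 FPKM in 40D and at 10560, 11367 and 10163 in NEC. Its adjusted p was 0.23, since the pooled spread is wide at this locus, and it was called in a fit of NEC and 40D alone. The next most abundant, VIT_02s0025g04310, was at 3769, 3760 and 3798 FPKM in 40D and at 9406, 9438 and 9129 in NEC. That locus was also not called in the fit of all groups. Together both loci held most of the summed level of the region.

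The PR10 region of chromosome 5 had the largest sum of any list in 40D, and its loci moved both ways. PR10 proteins are small cytoplasmic proteins induced by stress in many plants. The region summed to 37055, 37384 and 36979 FPKM in 40D and to 21259, 14847 and 24853 in NEC, or 3.98% to 3.99% of the column sum against 1.68% to 2.81%. VIT_05s0077g01580 made up most of it, with 35366, 35689 and 35296 FPKM in 40D and 20238, 14064 and 22105 in NEC. The groups did not overlap at that locus, but its value of -0.94 (standard error 0.62) was not called, except in a fit of NEC and 40D alone.

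Among the 10 PR10 loci past the level rule, of 17, 3 rose, 1 fell and 6 were not called, which is 40% called against 69.5% of all loci. VIT_05s0077g01670 fell by 4.36, with a standard error of 0.36, from 326, 352 and 333 FPKM to 16.4, 12 and 18.5. VIT_05s0077g01690 rose by 3.05 and VIT_05s0077g01680 by 1.25, with standard errors of 0.32 and 0.21, the former having passed the rule through NEC alone. VIT_05s0077g01530 was at 25.1, 25.2 and 25.3 FPKM in 40D and at 24.5, 49.2 and 236 in NEC. That rise of 1.36 overlapped the 40D libraries and was not called without NEC replicate 3, without any 1 of the 40D libraries, or under 5 further settings. Without NEC replicate 3, which was highest at 4 loci of the region by the 4-fold measure above, 2 rose and 3 fell. Members of these PR regions are close copies that may share reads, so the value of a single locus is uncertain.

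**Figure D2:**
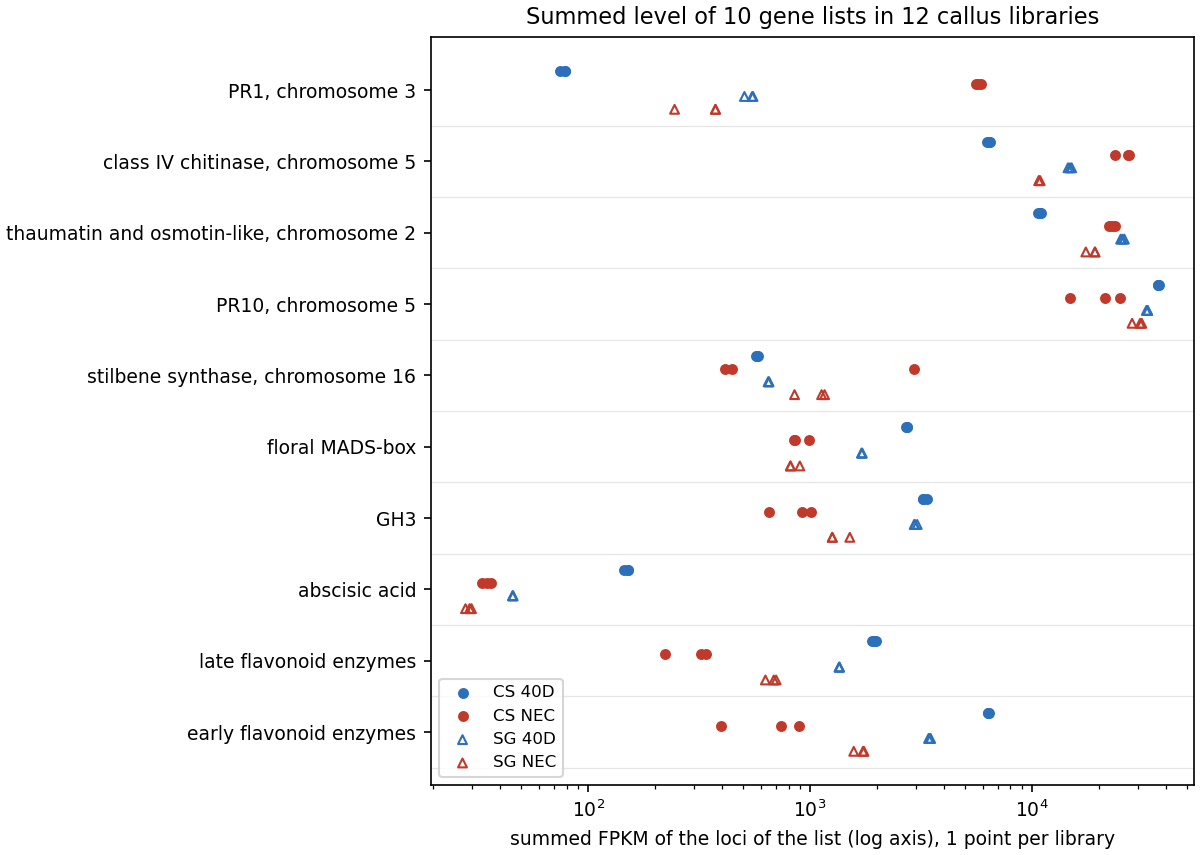
Summed FPKM (log axis) of 10 gene lists in the 3 libraries of CS 40D, CS NEC, SG 40D and SG NEC, 1 point per library, with CS as filled circles and SG as open triangles. PR1 and class IV chitinase sums are higher in CS NEC than in CS 40D and not in SG, and both flavonoid sums are lower in NEC in both cultivars.

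Flavonoid enzyme loci were lower in NEC throughout. The early enzymes run from chalcone synthase to the flavonoid hydroxylases, and the late ones make flavonols, anthocyanidins and the building blocks of tannins. All 9 early loci and all 7 late loci past the level rule fell, with median differences of -3.95 and -3.56, beside 34.2% of all loci that fell. The early loci summed to 6310, 6336 and 6411 FPKM in 40D and to 738, 395 and 888 in NEC, which is 9.43 times less by the means. The late loci summed to 1905, 1951 and 1987 FPKM and then to 340, 223 and 321. All 16 were also called lower with the 40D libraries averaged and without NEC replicate 3. Replicate 2 was the lowest NEC library at 15 of the 16 loci.

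The most abundant of them, VIT_18s0001g14310, was at 1729, 1727 and 1819 FPKM in 40D and at 112, 59.9 and 145 in NEC. It fell by 4.13, with a standard error of 0.31 and an adjusted p of 1.1e-09. The largest early falls were those of VIT_14s0068g00930, by 5.20 with a standard error of 0.78, and of its neighbour VIT_14s0068g00920, by 4.98 with a standard error of 0.72. Among late loci VIT_01s0011g02960 fell by 5.44, with a standard error of 0.44, from 121, 131 and 130 FPKM to 2.19, 1.05 and 2.96. VIT_00s0361g00040 fell by 4.23 with a standard error of 0.20, and VIT_17s0000g04150 fell by 4.17 with one of 0.23. The most abundant late locus, VIT_02s0025g04720, went from 824, 830 and 870 FPKM to 87.4, 55.5 and 71.4.

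Flavonoid 3'5'-hydroxylases add the hydroxyl group that leads to blue-purple delphinidin pigments. Of the 14 such loci on chromosome 6, 3 passed the level rule, each through the 40D libraries alone, so that their being lower in NEC was fixed by the rule. VIT_06s0009g02840 was at 4.02, 4.48 and 4.37 FPKM in 40D and at no more than 0.105 in NEC.

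The list of regulators of these pathways holds MYB, bHLH and WDR proteins, which act together in plants to switch flavonoid and stilbene genes on or off. Of 13 loci past the level rule, of 15, 4 rose, 6 fell and 3 were not called, which is 76.9% called, near the 69.5% of all loci. VIT_15s0046g00170 fell by 4.63, with a standard error of 0.45, from 174, 176 and 181 FPKM to 8.01, 3.8 and 7.55. The other 5 falls were smaller.

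Of the 4 rises, 3 lie close together on chromosome 2, and these 3 loci passed the level rule through NEC alone, so that they had to differ. VIT_02s0033g00390 was at 0.262, 0.264 and 0.634 FPKM in 40D and at 80.2, 114 and 77.5 in NEC, and rose by 6.04 with a standard error of 0.14. VIT_02s0033g00450 rose by 4.07 and VIT_02s0033g00410 by 3.52, each from at most 0.128 FPKM, with standard errors of 0.14 and 0.15. The lowest NEC values of these 2 loci were 13.5 and 8.35 FPKM. The other riser, VIT_07s0005g03340, was at 21.7, 23.3 and 21.3 FPKM in 40D and at 78.3, 63.5 and 273 in NEC, with NEC replicate 3 highest.

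**Figure D3:**
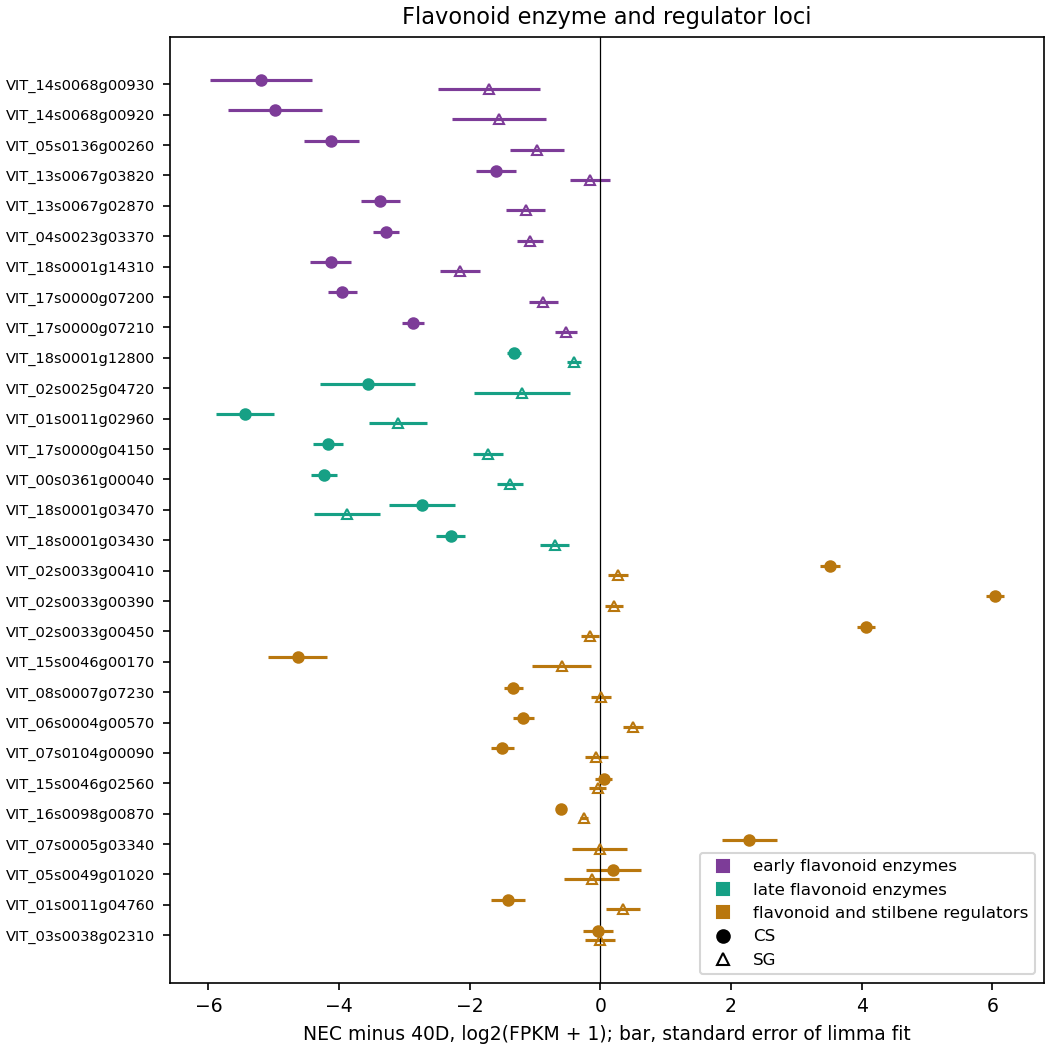
NEC minus 40D difference on the log2(FPKM + 1) scale for the early and late flavonoid enzyme loci and the regulator loci, with CS as filled circles, SG as open triangles and bars for the standard error of the limma fit. All 16 enzyme loci lie left of 0 in CS, and the 3 regulator loci of chromosome 2 lie between 3.52 and 6.04.

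Loci at the entry of the phenylpropanoid pathway, phenylalanine ammonia-lyase, cinnamate 4-hydroxylase and 4-coumarate CoA ligase outside the chromosome 16 cluster, gave 2 rises and 5 falls among 10 loci, which is 70% called, close to the 69.5% of all loci. Their sum was 1557, 1562 and 1599 FPKM in 40D and 798, 746 and 1534 in NEC, so NEC replicate 3 was near the 40D level and the other NEC libraries were not. VIT_06s0004g02620 fell by 4.24, with a standard error of 0.17, from 132, 132 and 133 FPKM to 6.11, 4.46 and 8.07. VIT_16s0039g02040 fell by 2.99, with a standard error of 0.39. The most abundant locus, VIT_06s0004g08150, fell by 0.77 with a standard error of 0.23, a call lost on averaging 40D. VIT_11s0078g00290 rose by 2.68 with a standard error of 0.44, and VIT_16s0050g00390 by 1.54 with one of 0.14. Without NEC replicate 3, 6 loci fell and 2 rose.

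Stilbene synthase and chromosome 16 phenylalanine ammonia-lyase loci were set by 1 library. The 39 stilbene synthase loci of chromosome 16 summed to 578, 582 and 570 FPKM in 40D and to 445, 414 and 2951 in NEC. All 26 loci past the level rule had their highest value of the 6 libraries in NEC replicate 3. In the other NEC libraries 16 of the 26 lay below every 40D library and 5 lay above. Only 1 of 26 was called, or 3.85% against 69.5% of all loci. It was VIT_16s0100g01160, higher by 1.04 with a standard error of 0.36. This call was lost with a pseudocount of 0.1, in a fit of NEC and 40D alone and after averaging 40D. Without NEC replicate 3, 0 loci were higher and 5 lower, without replicate 1 there were 5 higher, and without replicate 2 there were 7 higher. Over all 18379 loci, 6195 were higher and 6038 lower without replicate 3. Without replicates 1 and 2 in turn, 6094 and 6120 of all loci were higher.

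The most abundant stilbene synthase locus, VIT_16s0100g01100, was at 196, 193 and 195 FPKM in 40D and at 93.1, 78.1 and 349 in NEC, and was not called. The chromosome 10 stilbene synthases stayed low, with sums of 3.83, 21.7 and 14.0 FPKM in 40D and 2.16, 8.14 and 50.2 in NEC. Of their 3 loci past the level rule 0 were called, beside 69.5% of all loci. The 10 phenylalanine ammonia-lyase loci of chromosome 16, close copies at the first step of the pathway, summed to 20.3, 19 and 18.5 FPKM in 40D and to 7.96, 5.36 and 140 in NEC. None of the 6 past the level rule was called, beside 69.5% of all loci. Without NEC replicate 3, 3 fell, beside 6038 of all 18379 loci. VIT_16s0039g01130, the most abundant, was at 2.08, 0.969 and 39.8 FPKM in NEC. Stilbene synthase and ammonia-lyase copies can share reads.

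**Figure D4:**
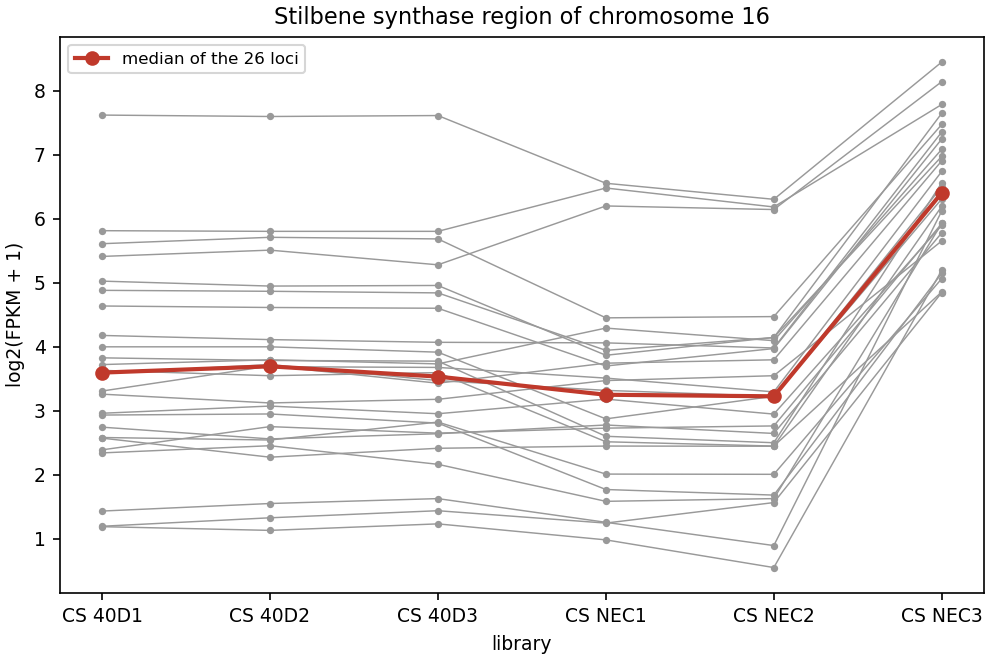
Level on the log2(FPKM + 1) scale of the 26 stilbene synthase loci of chromosome 16 that passed the level rule, in grey, and their median, in red, in the 6 CS libraries. The 3 40D libraries are level with each other, and NEC replicate 3 is the highest library for all 26 loci.

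Floral MADS-box loci encode transcription factors that give floral organs, stamens among them, their identity. They were listed because the callus came from anthers, but their levels are no measure of that origin. For example, VIT_18s0041g01880 was at 0.513 FPKM on average in CS anthers and at 74.2 in CS 40D. Of 9 loci past the level rule, of 11, 7 fell, 1 rose and 1 was not called, with a median difference of -1.17, beside 34.2% of all loci lower. One of the 7 passed the rule through 40D alone. Their sum was 2700, 2727 and 2743 FPKM in 40D and 845, 991 and 859 in NEC. It was 2094 ± 42.3 in CS anthers and 53.9 ± 26.8 in CS EC (SD, n = 3). VIT_18s0001g01760 went from 1056, 1062 and 1079 FPKM to 9.68, 17.2 and 15.4, and fell by 6.18 with a standard error of 0.36 and an adjusted p of 2.9e-11.

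VIT_18s0001g13460 fell by 3.49, with a standard error of 0.20, from 43.6, 41.8 and 41.1 FPKM to 2.84, 2.67 and 3.06. VIT_04s0023g02820, at 753, 756 and 774 FPKM in 40D, was at 275, 278 and 258 in NEC, a fall of 1.49 that was not called with a pseudocount of 0.1 or after averaging 40D. The 1 locus that rose, VIT_12s0142g00360, was at 82.3, 88.1 and 81.7 FPKM in 40D and at 127, 169 and 131 in NEC. It rose by 0.74, with a standard error of 0.18.

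None of the loci of the abscisic acid and GH3 lists was called higher in NEC. Abscisic acid acts in drought and seed maturation. Its list holds dioxygenases of the family that includes those making the hormone, the hydroxylases that break it down and zeaxanthin epoxidase. Its sum was 145, 151 and 151 FPKM in 40D and 35.1, 36.3 and 33.2 in NEC. Of 6 loci past the level rule 4 fell and 0 rose, or 66.7% called, near the 69.5% of all loci. VIT_02s0087g00910 made up most of the 40D sum. It fell by 5.60, with a standard error of 0.37, from 90.3, 93.7 and 94.2 FPKM to 1.42, 0.241 and 1.42. Whether this dioxygenase locus acts in making the hormone was not tested. VIT_10s0003g03750 fell by 2.32 with a standard error of 0.13, and VIT_19s0093g00550 by 1.39 with one of 0.17.

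GH3 enzymes join auxin to amino acids, which removes free auxin from the cell, and are induced by auxin. Of the 4 GH3 loci 3 fell, or 75% called, near the 69.5% of all loci, and their sum was 3233, 3218 and 3354 FPKM in 40D and 922, 654 and 1008 in NEC. VIT_07s0129g00660 made up most of it, with 2871, 2851 and 2971 FPKM in 40D and 572, 393 and 593 in NEC, a fall of 2.50 with a standard error of 0.37. VIT_07s0005g00090 fell by 3.24, with a standard error of 0.09, to at most 0.221 FPKM, having passed the rule through 40D alone. The 40D and NEC calli had been grown on media with different auxins, and the part of this in the GH3 values was not tested.

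Sugar transport and invertase loci were called at 63.6%, near the 69.5% of all loci, with 4 higher, 3 lower and 4 not called, and had sums of 470 ± 8.11 FPKM in 40D and 527 ± 49.5 in NEC (SD, n = 3). Invertases split sucrose into hexoses, in the cell wall or in the vacuole. VIT_09s0002g02320 rose by 1.78, with a standard error of 0.28, from 13.0, 13.5 and 14.9 FPKM to 39.0, 46.3 and 67.7. VIT_02s0154g00090 rose by 1.07 with a standard error of 0.11, and VIT_11s0149g00050 fell by 2.41, with a standard error of 0.20, from 101, 99.8 and 102 FPKM to 18.3, 18.1 and 18.1.

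Lipoxygenases start the synthesis of jasmonates and leaf volatiles from fatty acids. Among 9 loci past the level rule 4 fell and 1 rose, which is 55.6% called against 69.5% of all loci, or 3 rose with median-of-ratios scaling, with equal column sums or without NEC replicate 2. VIT_13s0064g01480 fell by 4.88, with a standard error of 0.20, from 44.7, 44.2 and 46.0 FPKM to 0.503, 0.781 and 0.424, and passed the rule through 40D alone, as did 1 other of the falling loci.

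The terpene synthase region of chromosome 18, whose enzymes make mono- and sesquiterpenes, had 22 higher and 18 lower loci among 56 past the level rule, or 14 and 14 with 40D averaged. That is 71.4% called, close to the 69.5% of all 18379 loci. VIT_18s0001g05040, the most abundant, fell by 2.86 with a standard error of 0.15, from 243, 250 and 236 FPKM to 32.9, 27.7 and 38.2. VIT_18s0001g05180 fell by 4.38 with a standard error of 0.25. VIT_18s0001g05230 rose by 3.86 with a standard error of 0.69, and its NEC libraries stood far apart at 12.7, 3.5 and 67.8 FPKM. It passed the rule through NEC alone, as did 2 other rising loci of the region, and 1 of the falling loci passed through 40D alone.

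Position in the genome was not part of the rule. By the chromosome number in the identifier, the share of loci higher by at least 1 ran from 8.96% on chromosome 6 to 14% on chromosome 13, and that of loci lower by at least 1 from 9.09% on chromosome 16 to 14.9% on chromosome 8. Runs of 4 or more neighbouring loci that were all called the same way by at least 1 numbered 28 higher, with 138 loci, and 21 lower, with 89 loci. In all, 2158 loci (11.7%) were higher and 2230 (12.1%) lower by at least 1. How many runs a random order of loci would give was not tested. The longest higher runs held 8 loci each, on chromosomes 12 and 18, and the longest lower runs 5. The chromosome 12 run summed to 255 FPKM in 40D and 3118 in NEC. A run of 6 loci on chromosome 14 went from 254 to 4450 FPKM. Among the lists, the 3 rising regulator loci of chromosome 2 formed a run of 4 with 1 further locus, which together went from 1.38 to 243 FPKM. A lower run of 5 on chromosome 6 held 3 flavonoid 3'5'-hydroxylase loci. A higher run of 4 on chromosome 16 held 1 phenylpropanoid entry locus. The regulator and hydroxylase loci in these runs passed the level rule through 1 group alone.

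The same comparison in SG, which shares no library with CS, tells how far the changes of CS NEC were common to both cultivars. Of the 18379 loci, 50.7% were called in SG, with 27.7% higher and 23% lower in NEC than in 40D. Rescaling to equal column sums changed those 5087 higher and 4230 lower loci to 6557 and 3409, and median-of-ratios scaling changed them to 4336 and 4834, so that which direction had more calls depended on the scaling. By at least 1, 716 (3.9%) were higher and 1273 (6.93%) lower. Across loci, which are not independent replicates and whose spread was pooled over both cultivars, the differences correlated at a Pearson r of 0.636. Of the 2158 loci higher by at least 1 in CS, 1186 were also called higher in SG, 128 were called lower and 844 were not called. Of the 2230 lower by at least 1, 1566 were called lower in SG, 65 higher and 599 not. With a difference of at least 1 in both cultivars, 527 loci were higher, which is 24.4% of the CS and 73.6% of the SG loci. By the same measure 916 were lower, 41.1% and 72% respectively. The 18379 loci were chosen by their level in the CS libraries alone. Loci too low in CS are therefore left out of all these SG counts and shares.

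The test of the cultivar difference itself, the CS difference minus the SG difference in the same limma fit, called 4046 loci higher in CS (22%) and 4476 lower (24.4%), 46.4% of the 18379, or 4899 and 3831 with median-of-ratios scaling. Averaging each 40D group into 1 sample left 1976 and 2032. Of the 2158 larger CS rises 73.4% were called as higher in CS than in SG, and of the 2230 larger falls 64.4% as lower. Since these loci were taken for a large difference in CS, a smaller one in SG follows in part from that choice.

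**Figure D5:**
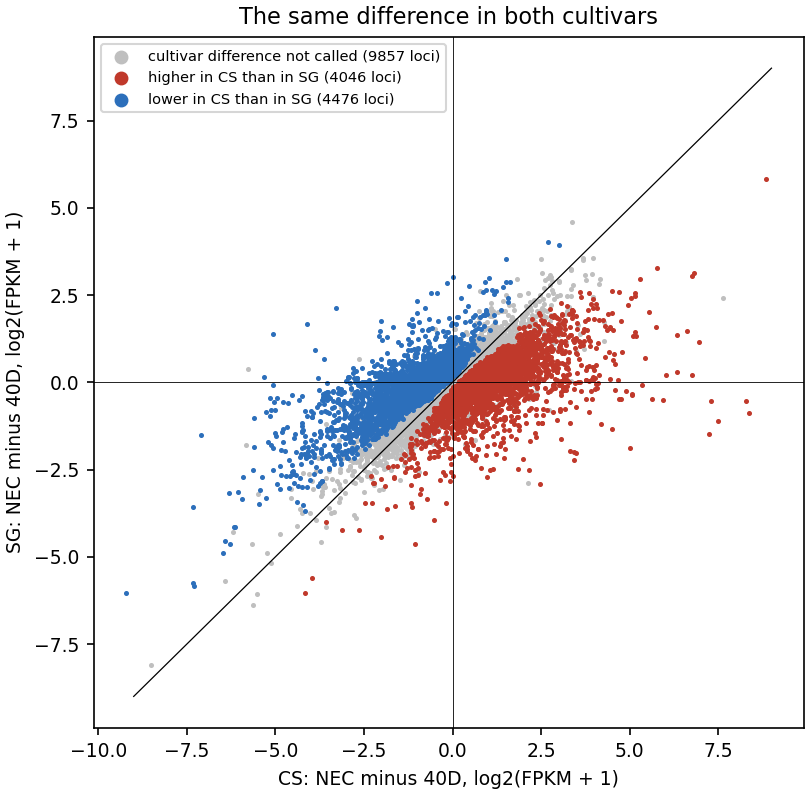
NEC minus 40D difference on the log2(FPKM + 1) scale in CS (horizontal axis) and SG (vertical axis) for the 18379 loci, with equal differences on the diagonal and loci whose cultivar difference was called by limma in colour. The 4046 loci below the diagonal and 4476 above it had an adjusted p under 0.05.

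The summed levels of the PR1, class IV chitinase and thaumatin regions, higher in CS NEC, were lower in SG NEC than in SG 40D. The most abundant locus of each region was not called in SG in the fit of all 8 groups. Those of the chitinase and thaumatin regions, VIT_05s0094g00340 and VIT_02s0025g04300, were also not called for the cultivar difference. The PR1 region summed to 536 ± 25.8 FPKM in SG 40D and 331 ± 74.9 in SG NEC (SD, n = 3). That fall came mainly from VIT_03s0088g00690, at 293 FPKM on average in SG 40D and 61.6 in SG NEC. All 5 PR1 loci were called for the cultivar difference, 4 higher in CS and 1 lower, beside 22% and 24.4% of all loci. VIT_03s0088g00700, at 209 FPKM in SG 40D and 247 in SG NEC, had a cultivar difference of 6.55 (standard error 0.64). VIT_03s0088g00710 had one of 7.82, with a standard error of 0.31 and an adjusted p of 9.9e-13. That locus passed the level rule through CS NEC alone, so its rise in CS was fixed by the rule. The class IV chitinase region summed to 14818 ± 279 FPKM in SG 40D and 10799 ± 83.7 in SG NEC, and the thaumatin region to 25565 ± 484 and 18640 ± 1003. Their cultivar differences were called at 3 higher and 2 lower loci, and at 3 higher and 0 lower loci. In SG alone, 5 chitinase loci were called higher and 0 lower, so that the sum and the count of loci went in opposite directions.

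Of the flavonoid enzyme loci, 5 of 9 early and 6 of 7 late ones fell in SG as well, beside 23% of all loci. The early loci summed to 3459 ± 37.6 FPKM in SG 40D and 1684 ± 97.0 in SG NEC, and the late loci to 1354 ± 2.86 and 673 ± 38.9. The NEC minus 40D difference of all 9 early loci and 5 of the 7 late loci was called lower in CS than in SG, beside 24.4% of all loci. Of those named above, VIT_18s0001g14310, VIT_14s0068g00930, VIT_14s0068g00920 and VIT_01s0011g02960 were not called for this after averaging 40D. The 3 rising regulator loci of chromosome 2 were not called in SG, and VIT_02s0033g00390 was at 2.36 FPKM in SG 40D and 2.93 in SG NEC, which is a cultivar difference of 5.82 (standard error 0.20). These 3 loci passed the level rule through CS NEC alone, so that their rise in CS was fixed by the rule. The MADS-box locus VIT_18s0041g01880, chosen here after its values were seen, went in opposite directions. It was at 75.7, 73.0 and 74.0 FPKM in CS 40D and 21.8, 45.6 and 34.6 in CS NEC, and at 20.2 ± 1.64 in SG 40D and 46.4 ± 3.28 in SG NEC. Its cultivar difference was -2.33 (standard error 0.34).

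Outside the lists, the largest positive cultivar differences were those of VIT_08s0007g07750 (9.26, standard error 0.51) and VIT_08s0007g07770 (8.81, standard error 0.19). The latter was at 0.833, 1.39 and 0.679 FPKM in CS 40D, at 561, 721 and 534 in CS NEC, and at 5.91 and 3.75 on average in SG 40D and NEC. Among negative ones VIT_01s0010g02030 stood at -5.80 (standard error 0.24), from 547, 540 and 523 FPKM in CS 40D to 34.7, 26.3 and 29.1 in CS NEC against averages of 102 and 328 in SG. VIT_01s0026g01900 (-6.45, standard error 1.91) was at 40.4, 15.7 and 53 FPKM in CS 40D and was listed at 0 in all 3 CS NEC libraries. It passed the level rule through 40D alone, so that its fall in CS was fixed by the rule. In SG 40D and NEC it was listed at 0 except for 16.9 FPKM in NEC replicate 3. Neither its fall in CS nor its cultivar difference was called after averaging 40D.

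The levels of these loci in the groups outside the comparison describe where CS NEC stands. Over the 2158 loci higher by at least 1, the median log2(FPKM + 1) level was 2.13 in CS 40D, 4.02 in CS NEC, 2.06 in CS anthers and 2.85 in CS EC. Over the 2230 lower loci it was 3.60 in CS 40D, 1.57 in CS NEC, 2.57 in anthers and 3.13 in EC. By the nearer of both levels, 37.9% of the higher and 47.4% of the lower loci were closer to CS NEC than to CS 40D in CS EC, and 33.5% and 57.3% were so in CS anthers. In SG NEC the shares were 66.5% and 82.5%, and in SG 40D they were 40.1% and 40.2%.

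Lists differed in how EC and anthers stood. The PR1 region summed to 2.39 ± 2.29 FPKM in CS anthers and 30.1 ± 6.77 in CS EC, against 5716 ± 161 in CS NEC (SD, n = 3). Class IV chitinases summed to 580 ± 160 in anthers and 223 ± 12.2 in EC, and the thaumatin region to 143 ± 45.5 and 239 ± 15.5. Early flavonoid loci were at 695 ± 136 in anthers, 678 ± 12.3 in EC and 674 ± 253 in NEC, all far under the 6352 ± 52.1 of 40D callus. The GH3 sum was 31.9 ± 3.58 in anthers and 75.1 ± 6.96 in EC, below both 861 ± 185 in NEC and 3268 ± 74.4 in 40D.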

How the data were processed

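RNA was sequenced from non-directional libraries, so reads of a gene and its antisense partner cannot be told apart. The authors deposited FPKM values, 1 column per library. CASAVA 1.8.2, TopHat2 2.0.9 and Cufflinks 2.1.1 are named in the submitters' processing notes. Build, annotation and any further scaling are not stated by the labels or headers. Since FPKM values are not counts, they were fitted on log2(FPKM + 1) with limma 3.58.1 in R 4.3.3, over the 21568 loci at 1 FPKM in 3 of 24 libraries, with 8 group means, a spread trend and 16 residual degrees of freedom. Adjusted p is Benjamini-Hochberg over those loci. The log scale understates the changes of low loci, and an exact 0 may be a failed estimate. Lists were not tested. SDs and p-values cover the spread between these libraries, which may be technical.

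The comparison, lists and alternatives were chosen with earlier results of these data known. Named loci are those with the largest called changes each way, overall (5 FPKM or more in the higher group, no overlap between groups) and for the cultivar difference, and from each list the most abundant locus and the largest called changes. Replicate numbers did not pair the libraries.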

Additional observations from a re-analysis of the deposited data

Results flagged for a closer look

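The NEC against 40D difference differed between the cultivars, by the limma test of the difference itself, at 8522 of the 18379 loci. The values below are the CS difference minus the SG difference on the log2(FPKM + 1) scale, for loci named in the report whose cultivar difference was called. Loci that passed the level rule through 1 CS group alone, as given in the report, had to differ in CS. Their cultivar differences follow in part from that rule.

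Among the PR regions it was 6.55 for VIT_03s0088g00700, 7.82 for VIT_03s0088g00710, 5.65 for VIT_03s0088g00690 and -1.96 for VIT_03s0088g00810 in PR1. It was 3.73 for VIT_05s0094g00280 and 2.59 for VIT_05s0094g00330 in class IV chitinases, and 4.19 for VIT_02s0025g04250 and 1.96 for VIT_02s0025g04280 in the thaumatin region. In PR10 it was -1.40 for VIT_05s0077g01670, 3.00 for VIT_05s0077g01690 and 0.79 for VIT_05s0077g01680.

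Flavonoid enzyme loci had -1.98 for VIT_18s0001g14310, -3.50 for VIT_14s0068g00930, -3.43 for VIT_14s0068g00920, -2.34 for VIT_01s0011g02960, -2.84 for VIT_00s0361g00040, -2.45 for VIT_17s0000g04150 and -2.22 for VIT_06s0009g02840. Regulators had -4.04 for VIT_15s0046g00170, 5.82 for VIT_02s0033g00390, 4.24 for VIT_02s0033g00450, 3.26 for VIT_02s0033g00410 and 2.29 for VIT_07s0005g03340. Phenylpropanoid entry loci had -2.85 for VIT_06s0004g02620, -2.11 for VIT_16s0039g02040, -1.53 for VIT_06s0004g08150 and 1.26 for VIT_16s0050g00390.

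MADS-box loci had -2.04 for VIT_18s0001g01760, -1.02 for VIT_18s0001g13460, 1.06 for VIT_12s0142g00360 and -2.33 for VIT_18s0041g01880. Loci of the abscisic acid, GH3, sugar and lipoxygenase lists had -3.75 for VIT_02s0087g00910, -2.67 for VIT_07s0005g00090, 1.93 for VIT_09s0002g02320, 3.57 for VIT_02s0154g00090, -1.68 for VIT_11s0149g00050 and -2.48 for VIT_13s0064g01480. In the terpene synthase region the values were -1.93 for VIT_18s0001g05040, -0.95 for VIT_18s0001g05180 and 4.71 for VIT_18s0001g05230. Loci outside the lists had 3.00 for VIT_05s0020g05040, 9.26 for VIT_08s0007g07750, -3.17 for VIT_03s0038g02060, 8.81 for VIT_08s0007g07770, -6.45 for VIT_01s0026g01900 and -5.80 for VIT_01s0010g02030.

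After averaging each 40D group into 1 sample, 17 of these cultivar differences were not called.
Those of VIT_05s0077g01670, VIT_05s0077g01680 and VIT_18s0001g05180 were also lost when 1 of several single libraries was left out. With a pseudocount of 0.1, 6 of the cultivar differences listed above were not called.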

How the results depend on the processing

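Each result was recomputed under other settings. None of the 125 single-locus differences that were called changed sign. Loci were named for large called changes, so a kept sign follows in part from that choice. Of 27 differences that were not called, 6 changed sign under at least 1 setting, among them VIT_16s0039g01130 (0.35, and -1 without CS NEC replicate 3). Asking for a log2 difference of at least 1 left 2158 loci higher and 2230 lower in CS, 716 and 1273 in SG, and 1463 and 1217 for the cultivar difference. Averaging each 40D group into 1 sample gave 2580 and 2472 in SG, and 1976 and 2032 for the cultivar difference. With 1 library left out, CS ran from 6033 to 6195 higher and 5892 to 6099 lower, SG from 4407 to 4551 and 3691 to 4027, and the cultivar difference from 3667 to 3898 and 4027 to 4395. Median-of-ratios scaling shifted the median difference by 0.03 in CS and -0.05 in SG, and gave 4336 higher and 4834 lower loci in SG and 4899 and 3831 for the cultivar difference, both the other way round in which direction had more. Without CS NEC replicate 3 the chromosome 16 stilbene synthases went from 1 higher and 0 lower to 0 and 5.

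Libraries with the same replicate number did not deviate together, at correlations of -0.0351, -0.0253 and -0.0365 in CS, and 0 of 3 correlated best with its own number. With a replicate block, CS had 6430 higher and 6256 lower loci, SG had 5052 and 4191, and the cultivar difference 3993 and 4431.

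Read depth is unknown, so counting intervals are not given. Counts for the stilbene synthase, ammonia-lyase, PR10 and lipoxygenase lists rest on single NEC libraries, as given in the report.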
